A study of Mus musculus with 167 samples.

Results

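Individual lymphoid-primed multipotent progenitors (LMPPs) in which Irf8 transcript was detected were compared with LMPPs in which it was not. Levels are in TPM, the abundance of a gene's transcripts on a scale whose sum is equal in all cells, and a gene counts as detected at TPM 1 or more. Only cells in which 1000 or more genes reached that level entered. Of 168 columns of the table, 1 per cell, 130 were kept, and 51 of these were Irf8-positive (Irf8 at TPM 1 or more) and 79 Irf8-negative. The split therefore used the Irf8 value itself, and Irf8 is not among the genes reported as different.

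All cells were marrow cells of female mice of the strain C57Bl/6J, untreated, at 4 or 14 months of age. The gate took Lin- cells that were Sca-1+ and c-Kit+, without CD150 (CD150-), with CD34 (CD34+) and with the most Flt3 (Flt3hi), and cells were then captured and sequenced singly on a Fluidigm C1 circuit. Of the kept cells, 64 were of 4 months and 66 of 14 months. The 14-month columns carry set number 4 or 5, which the labels do not explain, and 29 kept cells had set number 4 and 37 set number 5. Animals are not named in the labels. Each age is therefore a single sample without replicates, and no p-value was computed. Intervals on shares of cells are exact (Clopper-Pearson) 95% binomial intervals and cover counting error only.

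IRF8 is a transcription factor of the interferon regulatory factor family. It binds poorly alone and pairs with Ets-family factors such as PU.1 (gene Spi1), or with other IRF proteins, at composite elements in DNA. In marrow progenitors it is required for monocyte and dendritic cell formation, restrains neutrophil formation and also acts early in the B lineage. LMPPs can give rise to lymphoid cells and to granulocytes and monocytes, and single LMPPs often hold transcripts of both kinds.

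Irf8 was detected in 39.2% of kept cells (51 of 130, interval 30.8% to 48.2%). Among 4-month cells 31 of 64 were positive, a share of 48.4% with an interval of 35.8% to 61.3%. Among 14-month cells 20 of 66 were, a share of 30.3% with an interval of 19.6% to 42.9%. Within the 14-month cells it was 7 of 29 in set 4 and 13 of 37 in set 5. The intervals of the ages overlap. Most cells lay far from the threshold. Irf8 was listed at 0 in 71 of the 79 negative cells, and 38 of the 51 positive cells had 10 TPM or more, while 13 lay between 1 and 10 TPM and 8 negative cells lay above 0. The cells just under the threshold had 0.67, 0.73 and 0.92 TPM and those just over it 1.03, 1.24 and 2.02 TPM. The median level among positive cells was 36.9 TPM at 4 months, with a highest value of 659 TPM, and 21.9 TPM at 14 months, with a highest value of 282 TPM. None of the 38 columns that were left out had Irf8 at TPM 1 or more.

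Irf8-positive cells had more genes detected than Irf8-negative cells. The median was 4380 genes in the 31 positive cells of 4 months (range 1445 to 6848) and 3627 in the 33 negative cells (range 1066 to 6276). At 14 months it was 3878 genes in the 20 positive cells (range 1361 to 6160) and 2939 in the 46 negative cells (range 1021 to 4516). Grouped by genes detected into 3 near-equal groups, Irf8-positive cells made up 5 of 22, 11 of 21 and 15 of 21 cells at 4 months, from the group with fewest genes to that with most. The same counts at 14 months were 3 of 22, 6 of 22 and 11 of 22. The share of TPM from mitochondrial transcripts had medians of 12.4% in positive and 13.3% in negative cells at 4 months, and 20.8% and 17.5% at 14 months.

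**Figure D1:**
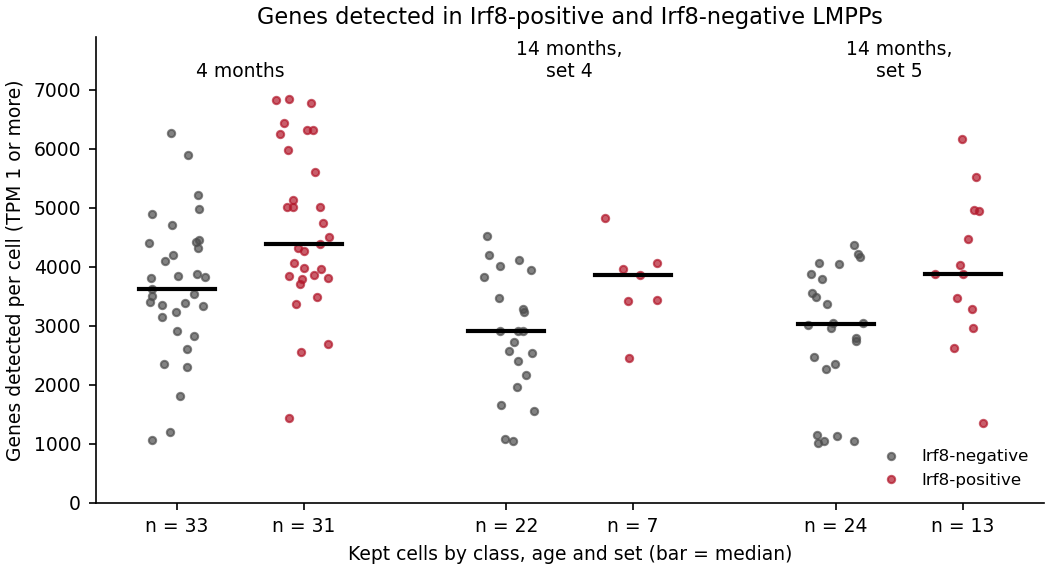
Genes detected per kept cell (vertical axis, number of genes at TPM 1 or more) for Irf8-negative (grey) and Irf8-positive (red) cells of 4 months and of each 14-month set, with 1 point per cell and a bar at the median. The positive median is the higher one in each of the 3 pairs, and the ranges of the classes overlap.

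Because sequencing depth is not kept in TPM, differences are given relative to the gene in the middle. For each of 9223 measured genes, those detected in at least 10% of cells, the mean of log2(TPM+1) in negative cells was subtracted from that in positive cells within an age. The median gene was 0.38 higher in positive cells at 4 months and 0.33 higher at 14 months, and this median was subtracted. A value of 1 for such a relative difference thus stands for a mean 1 log2 unit above that of the median gene. When the number of genes detected was included in a linear fit within each age, the median gene's difference was -0.01 at 4 months and close to 0 at 14 months. Values from that fit, and from 38 positive and 38 negative cells of the same age matched to within 0.1 log2 units of genes detected, stand beside the main ones below.

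At least 1 log2 unit above the median gene in both ages lay 241 genes, or 2.61% of those measured, and at least 1 below in both ages lay 24 genes, or 0.26%. With genes detected in the fit the counts were 88 above and 69 below, a nearly even split. Within 4 months alone 731 genes (7.93%) were at least 1 above and 340 (3.69%) at least 1 below, and within 14 months alone 1110 (12%) and 331 (3.59%). With all ages together, where the median gene was 0.42 higher in positive cells, 565 genes (6.13%) were at least 1 above and 81 (0.878%) at least 1 below. With no size limit, 29.4% of genes were above the median gene in both ages and 29.4% were below in both. Across genes the relative differences of the ages had a Pearson correlation of 0.27, where genes are not independent of each other.

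**Figure D2:**
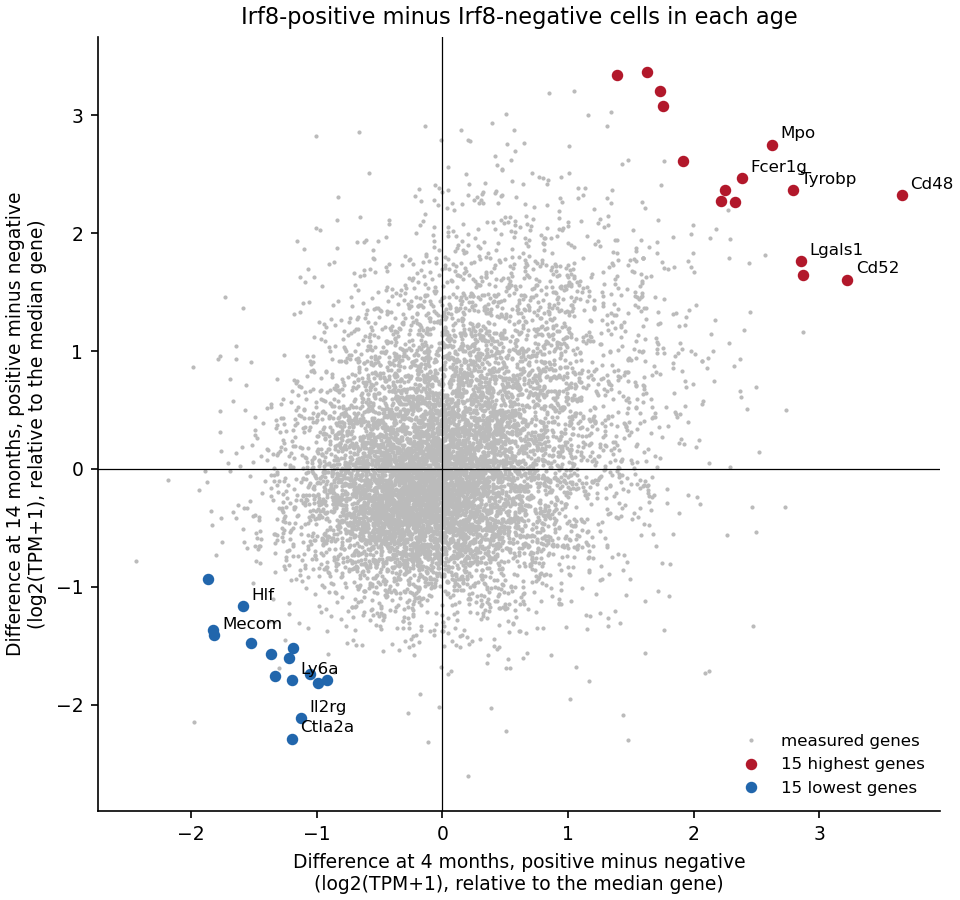
Relative difference of each measured gene between Irf8-positive and Irf8-negative cells (log2(TPM+1), positive minus negative) at 4 months on the horizontal axis and at 14 months on the vertical axis. The 15 highest genes (red) lie at the upper right with Cd48 farthest to the right, and the 15 lowest (blue) at the lower left, which the rule of the same sign in both ages requires.

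The 15 highest and the 15 lowest genes were taken by the mean of the ages' relative differences. They were required to have the same sign in both ages and in matched cells, so their direction there is given by the choice. The highest were Cd48, Mpo, Tyrobp, Fabp5, Bphl, Fcer1g, Nt5c, Cd52, Traf3ip3, Lgals1, Ndufab1, Kars, Adgrg3, Tmem147 and a gene not reported here, with means from 2.24 to 2.99. The lowest were Ctla2a, Il2rg, Mecom, Rb1cc1, Ikzf2, Ube2l6, Ly6a, Abcg1, Rgs1, Car2, Oasl2, Tspan13, Hlf, Thumpd3 and Nr4a1, with means from -1.74 to -1.35. In each of the genes described below the ranges of TPM in positive and negative cells overlapped.

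Mpo, which ranked after Cd48, encodes myeloperoxidase, the granule enzyme of neutrophil and monocyte precursors (chr11:87793581-87804413, mm10). At 4 months Mpo ranged from 0 to 2258 TPM in positive cells, with a median of 118, and from 0 to 5902 TPM in negative cells, with a median of 0. At 14 months the range was 0 to 2408 TPM with a median of 135 in positive cells, against 0 to 13569 TPM with a median of 1.25 in negative cells. The highest single values were thus in negative cells, while most positive cells held the transcript. Mpo was detected in 78.4% of positive cells (40 of 51, interval 64.7% to 88.7%) and 45.6% of negative cells (36 of 79, interval 34.3% to 57.2%). Among matched cells it was detected in 29 of 38 positive and 20 of 38 negative cells. Its relative difference was 2.62 at 4 months and 2.75 at 14 months, and 2.44 as the mean of the ages with genes detected in the fit.

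Tyrobp and Fcer1g encode the signalling adaptors that carry activating receptors on monocytes, dendritic cells, neutrophils and natural killer cells. Tyrobp (chr7:30413760-30417585) had a median of 77.5 TPM in positive cells of 4 months, up to 1262 TPM, and a median of 0 in negative cells, up to 370 TPM. At 14 months its median was 16.0 TPM in positive cells, up to 2689 TPM, and 0 in negative cells, up to 1251 TPM. It was detected in 66.7% of positive (interval 52.1% to 79.2%) and 30.4% of negative cells (interval 20.5% to 41.8%). Fcer1g (chr1:171229572-171234365) was detected in 58.8% of positive (interval 44.2% to 72.4%) and 20.3% of negative cells (interval 12.0% to 30.8%). The intervals of both genes do not overlap between the classes. Both genes were chosen for a large difference in these same cells, so that gap is no separate result. With genes detected in the fit, their relative differences were 2.36 for Tyrobp and 2.45 for Fcer1g. Those were close to the values without it, 2.58 and 2.43.

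Regulators of the monocyte and dendritic lineages differed less evenly. Zeb2, a zinc-finger repressor needed for monocyte and plasmacytoid dendritic cells, was detected in 35 of 51 positive and 24 of 79 negative cells, and in 25 of 38 and 11 of 38 matched cells. Its median was 3.68 TPM in positive cells of 4 months, up to 752 TPM, and 33.1 TPM at 14 months, up to 348 TPM, while both negative medians were 0. Its relative difference was 1.55 at 4 months and 1.88 at 14 months. Spi1, which encodes the IRF8 partner PU.1, was detected in 54.9% of positive cells (interval 40.3% to 68.9%) and 30.4% of negative cells (interval 20.5% to 41.8%), with relative differences of 1.27 and 1.06. Those intervals overlap, and matched cells held Spi1 in 19 of 38 positive and 15 of 38 negative cells. Id2, an inhibitor of E proteins that favours conventional dendritic cells, had relative differences of 1.19 and 1.12, but -0.28 in set 4 of the 14-month cells against 1.88 in set 5.

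The other regulators lay on both sides of the median gene. Nr4a1, an immediate early nuclear receptor that acts in monocytes, was 1 of the 15 lowest genes with -1.19 and -1.52, and Runx2, a Runt-family factor of plasmacytoid dendritic cells, had -0.72 and -0.39. Cebpa, the factor of granulocyte-monocyte commitment, had a mean relative difference of -0.03, and it was -0.54 at 4 months and 0.48 at 14 months. Klf4, which acts in monocytes and is a reported IRF8 target, had 0.01. Of the 11 measured genes of the list of 19 monocyte and dendritic regulators, 4 were above the median gene in both ages, or 36.4% beside 29.4% of all measured genes, and Nr4a1 and Runx2 were the 2 below in both. Those above in both were Zeb2, Spi1, Id2 and Irf5. Irf4 and Spib of that list, known for later dendritic and B cells, were listed at 0 in every kept cell. Bcl11a, an early lymphoid and dendritic factor, had -0.06.

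Of the list of 32 genes of monocyte and dendritic function, 21 were measured, and 13 of these were above the median gene in both ages (61.9%, beside 29.4% of all measured genes), with 2 below in both. The 13 include 5 genes, Ly86, Mpeg1, Ms4a6c, Ccr2 and Sirpa, that were detected in under 10% of negative cells. These passed the 10% filter on measured genes only through the positive class, where they are high, so the filter favours their direction. Of all 719 measured genes in under 10% of negative cells, 184 were above in both ages. Of the 16 genes in at least 10% of negative cells, 8 were above in both ages (50.0%, beside 29.8% of all such genes) and 2 below, with a median relative difference of 0.53. Clec12a, a C-type lectin receptor of myeloid cells, was among those 16, and it was detected in 32 of 51 positive and 24 of 79 negative cells, with 1.72 and 2.11. Ly86, which encodes the MD-1 partner of the receptor CD180, was detected in 16 of 51 positive cells (31.4%, interval 19.1% to 45.9%) and 3 of 79 negative cells (interval 0.79% to 10.7%). Mpeg1, which encodes the pore-forming protein perforin-2 of phagocytes, was detected in 33.3% of positive cells (interval 20.8% to 47.9%) and 6.33% of negative cells (interval 2.09% to 14.2%). These low-share genes had a median of 0 TPM in each class, except Mpeg1 in positive cells of 14 months at 2.98 TPM. In matched cells Ly86 was held by 13 positive and 3 negative cells and Mpeg1 by 14 and 4.

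Genes of more mature cells differed from one another. Of the 10 macrophage and monocyte markers 5 were measured (Mpeg1, Cd68, Ccr2, Lyz2 and Csf1r), all above the median gene by the mean of the ages and 3 above in both ages, with a median of 0.54 that was 0.85 with genes detected in the fit. Of these 3, Mpeg1 and Ccr2 passed the filter through the positive class, which left Cd68 with 1.25 and 0.19. The filter favours the direction of Mpeg1 and Ccr2 in the counts and medians of the 5 as well. Without them the 3 other markers had a median of 0.26. That is the value of Lyz2, which had -0.87 at 4 months and 1.39 at 14 months. Grn, which encodes progranulin, had 0.06 and 1.06, and Psap, which encodes the lysosomal protein prosaposin, 0.31 and 0.70. Csf1r, the receptor for the macrophage growth factor M-CSF, had a mean relative difference of 0.03, and was detected in 13 of 51 positive and 8 of 79 negative cells. Csf3r, the receptor for the neutrophil growth factor G-CSF, had 0.07 at 4 months and -1.72 at 14 months. Plac8, an abundant transcript of early myeloid progenitors, was held by 49 of 51 positive and 75 of 79 negative cells, with a relative difference of 1.33 that was 0.55 with genes detected in the fit. Xcr1, the receptor of cross-presenting dendritic cells, had -0.29 and Bst2, an antiviral membrane protein abundant on plasmacytoid cells, -0.37. Of the 10 dendritic markers 4 were measured. All 4 were below the median gene by the mean of the ages, as were 49.9% of all measured genes, and 2 were below in both ages. Their median was -0.33, and -0.47 with genes detected in the fit. The macrophage marker Adgre1 and the dendritic marker Cd209a were listed at 0 in every kept cell. The summed level of the 10 macrophage and monocyte markers had medians of 283 TPM in positive cells (range 0 to 995) and 120 TPM in negative cells (range 0 to 1446) at 4 months. At 14 months they were 115 TPM (range 0 to 13285) and 56.9 TPM (range 0 to 2918). The part of more mature monocytes in the difference was not tested. For the 10 dendritic markers, which include Flt3, the summed level had medians of 226 and 275 TPM at 4 months. At 14 months they were 156 and 160 TPM, with positive cells first in each pair.

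Granule genes other than Mpo were mixed. Ctsg, which encodes cathepsin G, was detected in 9 of 31 positive cells of 4 months and in 0 of 33 negative cells. A count of 0 was taken to allow up to 3 counts, here a share of 9.09%, which is not an exact interval. At 14 months Ctsg was detected in 9 of 20 positive and 12 of 46 negative cells, with a relative difference of 0.34. Prtn3, which encodes proteinase 3, had -0.17 at 4 months and 1.02 at 14 months, and Elane, which encodes neutrophil elastase, -0.20 and -0.37. Srgn, the granule proteoglycan serglycin, was detected in 50 of 51 positive and 76 of 79 negative cells but at a lower level in positive cells, with -0.76 and -1.47. Of the list of 22 granule and neutrophil genes 9 were measured, 4 above the median gene in both ages and 3 below in both. Ltf, Ngp and Ly6g, transcripts of maturing neutrophils, were listed at 0 in every kept cell. The summed level of the 9 neutrophil markers had a median of 0 TPM in each class and age, with 1 negative cell of 14 months at 364930 TPM of Camp and 1021 genes detected.

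Among lists with at least 3 measured genes, innate sensing had the largest share above the median gene in both ages: 15 of 18 measured genes (83.3%, beside 29.4%), from a list of 31, with 0 below in both. Its median relative difference was 0.57, and 0.73 with genes detected in the fit. Within the 14-month cells the list median was 1.39 in set 4, with 7 positive cells, and 0.08 in set 5, with 13. Tlr7, Ly86 and Cd180 were in under 10% of negative cells, and of the other 15 genes 12 were above in both ages (80.0%, beside 29.8%). Tyrobp, Fcer1g and Ly86 belong to this list as well as to that of monocyte and dendritic function. In the median positive cell 50.0% of these genes were detected at 4 months and 44.4% at 14 months, beside 27.8% and 22.2% in the median negative cell. Myd88, the adaptor of most Toll-like receptors, had a mean difference of -0.36 and Traf6, the ubiquitin ligase downstream of it, -0.07.

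Cd48, a ligand of CD244 that is absent from most stem cells and present on multipotent progenitors, had the highest mean relative difference of the genes taken by the rule (chr1:171682009-171705258). Its median was 190 TPM in positive cells of 4 months, up to 1080 TPM, and 0 TPM in negative cells, up to 601 TPM. At 14 months the medians were 124 TPM, up to 1282 TPM, and 27.0 TPM, up to 720 TPM. Cd48 was detected in 86.3% of positive cells (44 of 51, interval 73.7% to 94.3%) and 53.2% of negative cells (42 of 79, interval 41.6% to 64.5%), and in 33 and 27 of the 38 matched cells of each class. Its relative difference was 3.66 at 4 months and 2.32 at 14 months, and the mean of 2.99 was 2.04 with genes detected in the fit.

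Cd52, a glycosylphosphatidylinositol-anchored surface peptide of lymphocytes and monocytes, was detected in 92.2% of positive and 65.8% of negative cells. Its median was 433 TPM against 22.1 TPM at 4 months and 259 TPM against 143 TPM at 14 months. Its relative difference of 3.22 at 4 months and 1.61 at 14 months had a mean of 2.42, which was 1.39 with genes detected in the fit. Adgrg3, an adhesion receptor coupled to G proteins, had 2.87 at 4 months and 1.64 at 14 months, and within 14 months 2.40 in set 4 and 0.62 in set 5. Lgals1, which encodes the sugar-binding protein galectin-1, was detected in 36 of 51 positive and 24 of 79 negative cells, and had a mean of 2.31 that was 2.72 with genes detected in the fit.

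**Figure D3:**
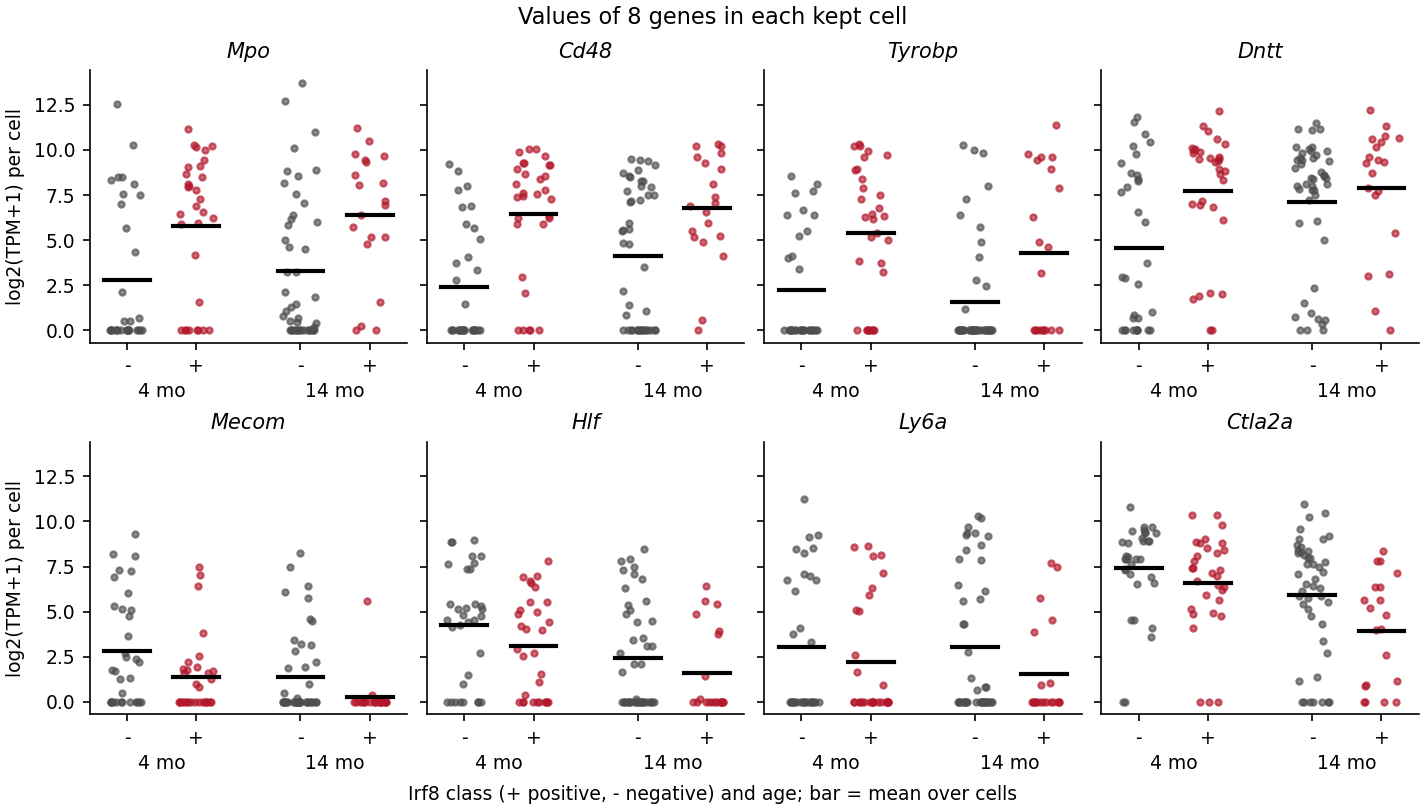
Log2(TPM+1) of 8 genes in each kept cell, for Irf8-negative (-, grey) and Irf8-positive (+, red) cells of 4 and 14 months, with a bar at the mean over cells. Cells at 0 are fewer among positive than negative cells for Mpo, Cd48, Tyrobp and Dntt, and every panel holds cells of both classes at 0 and at high values.

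Genes of the lymphoid program differed by gene and by age. Dntt encodes terminal deoxynucleotidyl transferase, which adds bases at the joints of immune receptor genes. At 4 months its median was 641 TPM in positive cells, up to 4480 TPM, and 6.82 TPM in negative cells, up to 3642 TPM. At 14 months the medians were 630 TPM, up to 4720 TPM, and 340 TPM, up to 2926 TPM. The positive classes were alike at the ages and the negative classes were not: the relative difference was 2.73 at 4 months and 0.50 at 14 months, with -1.12 in set 4 and 1.31 in set 5. Whether the ages differed beyond cell-to-cell spread was not tested. Ighm, the immunoglobulin mu chain gene, whose unrearranged transcripts appear early, was detected in 48 of 51 positive and 56 of 79 negative cells, with relative differences of 2.18 and 2.04.

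The other lymphoid genes were smaller or went the other way. Satb1, a chromatin organiser of lymphoid priming, had 0.91 and 1.03, and Il7r, the receptor of interleukin 7, had -0.23 at 4 months and 1.05 at 14 months. Il7r was detected in 10 of 51 positive cells and 8 of 79 negative cells. Il2rg, the shared gamma chain through which that receptor signals, was lower in positive cells, with -1.12 and -2.11. Its medians were 40.6 TPM in positive and 35.8 TPM in negative cells at 4 months, so it stood below the median gene there without a lower median, and 1.36 and 64.9 TPM at 14 months. Lck, a kinase of T and natural killer cells, had -1.25 and -0.85. Of 20 measured genes in the early lymphoid list of 31, 7 were above the median gene in both ages and 4 below in both, with a median of 0.18 that was 0.03 with genes detected in the fit. The B-cell markers Pax5 and Igll1 and the T-cell markers Cd3e, Cd3g and Trbc1 were listed at 0 in every kept cell.

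Mpo and Dntt, a myeloid and a lymphoid transcript, were detected together in 74.5% of Irf8-positive cells (38 of 51, interval 60.4% to 85.7%) and 35.4% of Irf8-negative cells (28 of 79, interval 25.0% to 47.0%). At 4 months the counts were 22 of 31 and 8 of 33, and at 14 months 16 of 20 and 20 of 46. Counted singly, Mpo was detected in 78.4% of positive and 45.6% of negative cells, and Dntt in 94.1% and 72.2%. Whether the genes were found together more often than these single shares imply was not tested. Neither transcript was detected in 1 of 51 positive and 14 of 79 negative cells. Dntt without Mpo was found in 10 of 51 positive and 29 of 79 negative cells, and Mpo without Dntt in 2 of 51 and 8 of 79. Among matched cells both were detected in 27 of 38 positive cells (71.1%, interval 54.1% to 84.6%) and 16 of 38 negative cells (42.1%, interval 26.3% to 59.2%), and those intervals overlap.

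**Figure D4:**
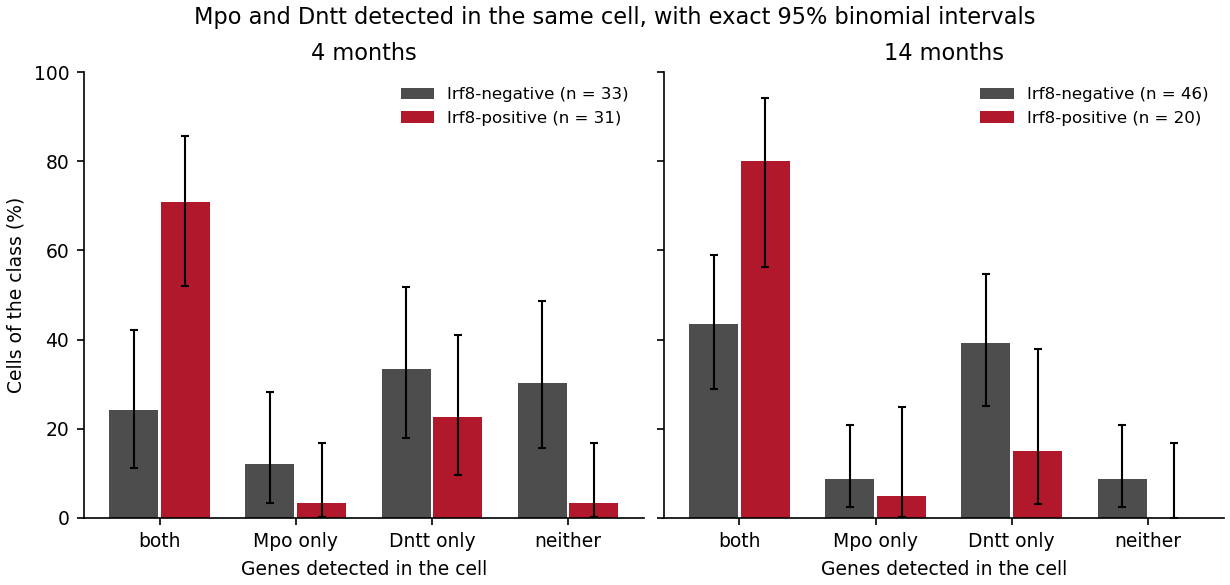
Percent of Irf8-negative (grey) and Irf8-positive (red) cells with both Mpo and Dntt, 1 of them or neither at TPM 1 or more, at 4 and at 14 months, with exact 95% binomial intervals. The bars for both genes are at 71.0% and 80.0% in positive cells and at 24.2% and 43.5% in negative cells.

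Stem cell genes were lower in Irf8-positive cells relative to the median gene. Of 19 measured genes of a list of 29, 17 were below by the mean of the ages, as were 49.9% of all measured genes, and 8 were below in both ages (42.1%, beside 29.4%), while 2 were above in both. The list's median was -0.34, and -0.33 with genes detected in the fit. The share of these genes detected in the median cell was 42.1% in both classes at 4 months. At 14 months it was 23.7% in positive and 26.3% in negative cells. Mecom, the transcription factor Evi1 that maintains stem cells, was detected in 14 of 31 positive and 20 of 33 negative cells at 4 months, and in 1 of 20 and 14 of 46 at 14 months. Its highest values were 178 TPM in positive and 624 TPM in negative cells at 4 months, and 47.1 and 303 TPM at 14 months, and its relative differences were -1.82 and -1.41. Hlf, another stem cell transcription factor, had medians of 6.55 TPM in positive and 26.5 TPM in negative cells at 4 months, and was detected in 7 of 20 and 22 of 46 cells at 14 months. Its relative differences were -1.59 and -1.16.

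Matching on genes detected widened the contrast in these genes. Mecom was detected in 29.4% of all positive and 43.0% of all negative cells, and in 10 of 38 and 22 of 38 matched cells. Ly6a, which encodes the sort marker Sca-1, was detected in 33.3% of all positive cells (interval 20.8% to 47.9%) and 41.8% of all negative cells (interval 30.8% to 53.4%), and in 8 of 38 and 21 of 38 matched cells. Its highest values were 395 TPM in positive and 2416 TPM in negative cells at 4 months, and 208 and 1271 TPM at 14 months. Mecom or Hlf was detected in 52.6% of matched positive cells (interval 35.8% to 69.0%) and 78.9% of matched negative cells (interval 62.7% to 90.4%). Hoxa7, a homeobox gene of early progenitors, went the other way with 0.35 and 1.05.

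Ctla2a, which encodes a cysteine protease inhibitor, was the lowest gene. Its median was 141 TPM in positive and 243 TPM in negative cells at 4 months, and 21.4 and 102 TPM at 14 months, with highest values of 1298, 1795, 329 and 2004 TPM in that order. Its relative differences were -1.20 and -2.29. It was detected in 28 of 31 positive and 31 of 33 negative cells at 4 months, and in 14 of 20 and 39 of 46 at 14 months, so the classes differed in level at both ages and also in the share of cells at 14 months. Ikzf2, the Ikaros-family factor Helios, was detected in 15.7% of positive cells (interval 7.02% to 28.6%) and 35.4% of negative cells (interval 25.0% to 47.0%), with -1.33 and -1.76. Rgs1, a regulator of chemokine receptor signalling, had -1.22 and -1.60, and was detected in 41 of 51 positive and 63 of 79 negative cells. Abcg1, a cholesterol exporter, had -1.37 and -1.57, but within the 14-month cells -3.99 in set 4 and -0.19 in set 5.

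Cell cycle genes were higher in Irf8-positive cells, and so was the number of genes detected. Of 50 measured S phase genes 34 were above the median gene in both ages (68.0%, beside 29.4%) and 3 below in both, and of 55 G2/M genes 36 were above (65.5%) and 3 below. The S phase median was 0.72, which was 0.40 with genes detected in the fit, and the G2/M median was 0.64, which was 0.36. In the median positive cell 52.0% of S phase genes were detected at 4 months and 58.0% at 14 months, beside 30.0% and 36.0% in the median negative cell. Mki67 and Top2a, the proliferation marker Ki-67 and the DNA topoisomerase of dividing cells, were detected together in 58.8% of positive cells (30 of 51, interval 44.2% to 72.4%) and 31.6% of negative cells (25 of 79, interval 21.6% to 43.1%). Among matched cells the counts were 20 of 38 and 15 of 38, with overlapping intervals of 35.8% to 69.0% and 24.0% to 56.6%. Mcm5, a subunit of the replicative helicase, had a mean of 2.13, and Rrm2, of ribonucleotide reductase, 1.59.

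The differences of the leading genes were also taken beside the level of the cell cycle. With genes detected and the mean level of the cell cycle genes both in the fit, Mpo had 2.16, Tyrobp 2.61, Fcer1g 2.61, Cd48 1.95, Mecom -1.74 and Ly6a -2.13. In the same fit Top2a had -0.01 and Mki67 -0.14. Both are cell cycle genes, whose shared level that fit takes out, so their values near 0 are no separate result. The lists' medians were then 0.76 for monocyte and dendritic function, 0.78 for innate sensing and -0.25 for stem cell genes. In the first list 5 of 21 measured genes, and in the second 3 of 18, passed the filter only through the positive class. The filter favours their direction, and the medians of this fit were not taken without them. Without them the medians of these lists outside any fit were 0.53 and 0.63.

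**Figure D5:**
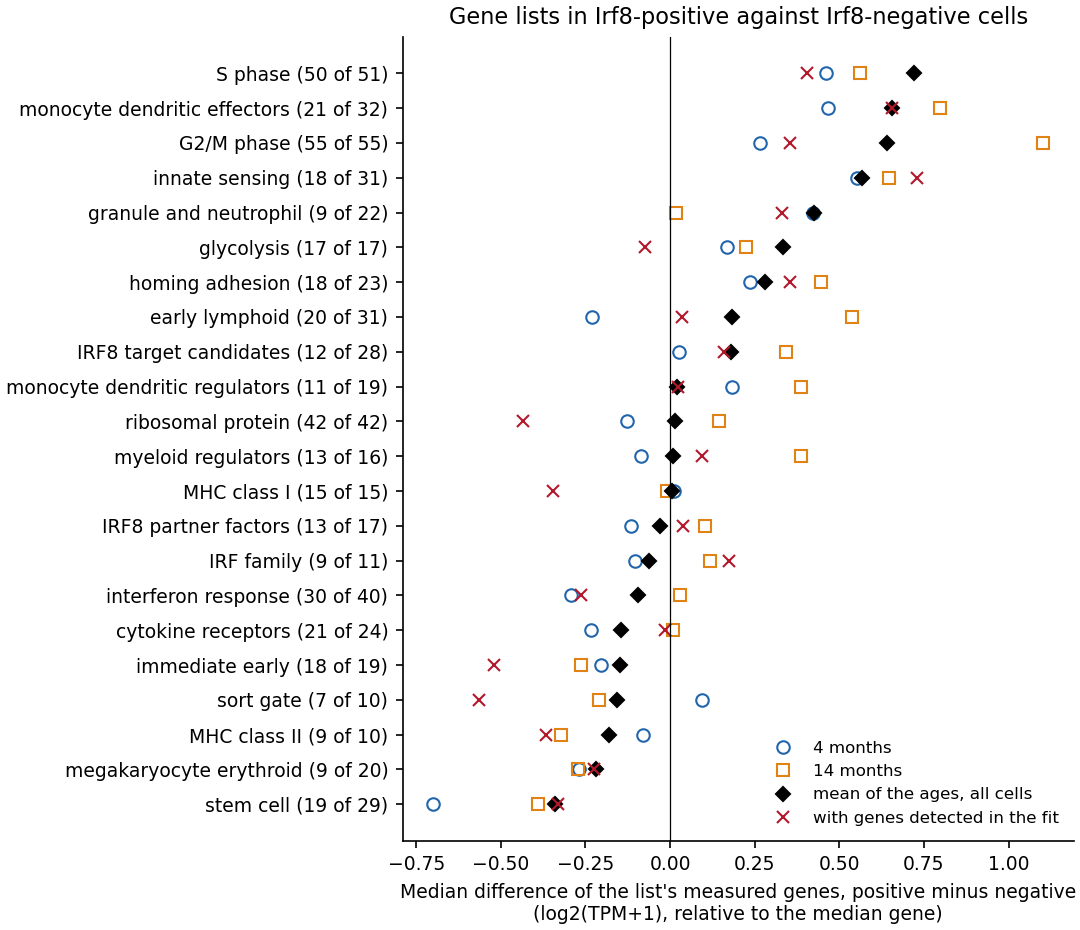
Median relative difference (log2(TPM+1), Irf8-positive minus Irf8-negative) of the measured genes of each list, with the measured and total number of genes in brackets, at 4 months (circles), at 14 months (squares), as the mean of the ages (diamonds) and with genes detected in the fit (crosses). Monocyte and dendritic effectors and innate sensing stay to the right of 0 in all 4 measures and stem cell genes to the left, while glycolysis and ribosomal proteins shift left with genes detected in the fit. Monocyte and dendritic effectors and innate sensing each include genes that passed the filter only through the positive class, which favours their direction.

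The lists of the IRF family, of partners and of reported targets of IRF8 had medians between -0.06 and 0.18. The IRF family list of 11 also holds Irf2bp1, Irf2bp2 and Irf2bpl, genes of IRF2-binding proteins and not of IRF proteins. Its 9 measured genes had a median of -0.06, with 2 above the median gene in both ages and 1 below in both. The measured IRF genes had means of 0.53 (Irf1), -0.12 (Irf2), 0.46 (Irf3), 0.54 (Irf5), -0.63 (Irf7) and -0.07 (Irf9). Irf5, which acts in macrophage activation, was detected in 17 of 51 positive and 10 of 79 negative cells, with 0.18 and 0.91. Irf7, the interferon-inducing member, had -0.70 and -0.56, and Irf1, the interferon gamma responsive member, close to 0 at 4 months and 1.07 at 14 months. The 13 measured partner genes of 17 had a median of -0.03. Of the 28 reported targets 12 were measured, 4 above the median gene in both ages (33.3%, beside 29.4%) and 1 below. By the mean of the ages 10 of the 12 were above, as were 50.1% of all measured genes, with a median of 0.18. Of the 12, 4 were in under 10% of negative cells (Ly86, Mpeg1, Cd180 and Gbp2), and they include 3 of the 4 above in both ages.

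Antigen presentation genes of MHC class I and class II had list medians whose distance from each other depended on the setting. With genes detected in the fit the list medians were -0.37 for class II and -0.35 for class I. In matched cells they were -0.19 and -0.22, but -0.43 and -0.20 in cells paired with the nearest cell without the limit of 0.1 log2 units. Of the 9 measured MHC class II genes, 6 were below the median gene in both ages (66.7%, beside 29.4%) and 1 above, with a list median of -0.18. Cd74, the invariant chain, had -1.01 and -0.74, and H2-Ab1, a class II beta chain, -0.47 and -1.24. In matched cells H2-Ab1 was detected in 9 of 38 positive and 22 of 38 negative cells. A single positive cell of 4 months had the highest values of both, 6982 TPM of Cd74 and 7767 TPM of H2-Ab1. In the class I list of 15 the median was 0.01, yet Psmb8, a subunit of the immunoproteasome that cuts peptides for class I, had 2.00 and 2.07 and was detected in 50 of 51 positive and 61 of 79 negative cells. Tap1, the peptide transporter, was detected in 34 of 51 and 23 of 79, while H2-Q6 had -0.93 and -1.19. H2-Q6 and its near-identical neighbour genes share reads, so its value is uncertain.

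Interferon response genes lay on both sides of the median gene. Of 30 measured genes of a list of 40, 12 were below the median gene in both ages (40.0%, beside 29.4%) and 6 above (20.0%, beside 29.4%), with a median of -0.09. With genes detected in the fit the list median was -0.26, and 22 of the 30 genes were below, beside 4541 of all 9223. The list median was -0.37 in matched cells, and within 14 months -0.59 in set 4 and 0.18 in set 5. The 6 above were Psmb8, Tap1, Psmb9, another immunoproteasome subunit, with 0.42 and 2.66, Ifi203 with 1.12 and 0.44, Oas1a, an antiviral oligoadenylate synthetase, with 0.80 and 0.30, and Usp18, which removes ISG15 from proteins, with 0.12 and 0.08. Among the 12 below were Ddx58, the viral RNA sensor RIG-I, with -1.01 and -0.69, and Oas2 with -1.04 and -0.57. Outside the list, Oasl2, an interferon-induced antiviral protein, was detected in 10 of 51 positive and 22 of 79 negative cells, with -1.87 and -0.93, and Ube2l6, the enzyme that conjugates ISG15, had -1.52 and -1.47. Ifitm1 of the list, an interferon-induced membrane protein, had medians of 361 TPM in positive and 633 TPM in negative cells at 4 months, and 118 and 384 TPM at 14 months. The receptor chains Ifnar2 and Ifngr1 had means of 1.14 and 1.11, and Ifngr1 was -0.06 at 4 months and 2.28 at 14 months.

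The remaining leading genes were of several kinds. Fabp5, a fatty acid binding protein, was detected in 34 of 51 positive and 24 of 79 negative cells and had 1.63 and 3.37. Bphl, a serine hydrolase of mitochondria, was detected in 56.9% of positive cells (interval 42.2% to 70.7%) and 19.0% of negative cells (interval 11.0% to 29.4%), and in 20 of 38 and 7 of 38 matched cells. Nt5c, a nucleotidase that dephosphorylates deoxyribonucleotides, was detected in 36 of 51 and 22 of 79 cells. Ndufab1, the mitochondrial acyl carrier protein, was detected in 49 of 51 and 60 of 79 cells, but in 36 of 38 matched cells of each class, and its mean of 2.31 was 1.38 with genes detected and the cell cycle level in the fit. Kars, the lysyl-tRNA synthetase, and Tmem147, a membrane protein of the endoplasmic reticulum, had 2.26 and 2.24, which were 1.53 and 1.64 with genes detected in the fit. As a list the 17 glycolysis genes had a median of 0.33 that was -0.07 in that fit, and the 42 ribosomal protein genes 0.01 that was -0.44.

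The genes of the sort gate served as a check of the cell type. Flt3 was detected in 50 of 51 positive and 75 of 79 negative cells and Cd34 in 46 and 69, with mean relative differences of -0.16 and -0.06. Kit was detected in 32 of 51 and 46 of 79 cells, with 0.31 and -1.07 at the ages. Flt3 and Cd34 were thus common in both Irf8 classes and Kit and Ly6a less so, and Slamf1, the gene of the excluded CD150, was listed at 0 in every kept cell.

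Promoters of the leading genes were searched for 3 motifs on both strands, in windows from 250 bases before to 50 bases after the RefSeq start (GRCm38.p6). A window was found for 19 of the 30 leading genes. The Ets-IRF composite element, GGAA and GAAA with any 2 bases between, at which IRF8 binds with PU.1, was in 0 of 10 highest and 0 of 9 lowest genes, beside 3.16% of all 27025 genes with a window. The interferon response type, GAAA and GAAA with any 2 bases between, was in 0 of 10 and 1 of 9, beside 3.99%. GAGGAAGT, a core to which PU.1 binds and which was added after the data were seen, was in 2 of 10 and 1 of 9, beside 3.69%. A match describes the letters only, and with so few windows nothing further is read from these counts. The 100 bases that hold each match are shown for the genes with one, 5′ to 3′ on the gene's strand, with the motif or its reverse complement in capitals. They are Mpo at chr11:87793534-87793633 (+ strand), Traf3ip3 at chr1:193201599-193201698 (- strand), Thumpd3 at chr6:113046074-113046173 (+ strand) and Mecom at chr3:30509897-30509996 (- strand).
Mpo, GAGGAAGT 224 bases before the start: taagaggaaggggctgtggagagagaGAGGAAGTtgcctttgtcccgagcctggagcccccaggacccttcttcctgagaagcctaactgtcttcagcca
Traf3ip3, GAGGAAGT 106 bases before the start: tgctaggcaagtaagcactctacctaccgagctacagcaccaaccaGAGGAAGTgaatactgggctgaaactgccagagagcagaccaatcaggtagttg
Thumpd3, GAGGAAGT 182 bases before the start: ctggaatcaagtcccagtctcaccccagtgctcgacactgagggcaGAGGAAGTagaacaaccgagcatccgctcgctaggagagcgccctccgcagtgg
Mecom, reverse complement of the interferon response type 192 bases before the start: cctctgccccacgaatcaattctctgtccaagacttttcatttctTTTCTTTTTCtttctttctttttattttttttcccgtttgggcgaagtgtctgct
Mpo and Traf3ip3 are the genes of this set that were higher in positive cells, with mean relative differences of 2.69 and 2.37, and Thumpd3 and Mecom those that were lower, with -1.35 and -1.61. Traf3ip3, an adaptor of lymphocyte signalling, was detected in 33 of 51 positive and 20 of 79 negative cells, and its window held a further match on the other strand 32 bases before the start. Thumpd3, an RNA methyltransferase subunit, was detected in 17 of 51 and 29 of 79.

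Within the Irf8-positive class the Irf8 level itself varied, and other genes were compared with it. Spearman's rank correlation between the Irf8 level and each gene was taken over the 31 positive cells of 4 months and the 20 of 14 months and averaged, as a description. Ggps1 and Sox12 had the highest values of 9144 genes at 0.49, followed by Rdx at 0.48 and Mrpl18 and Gps1 at 0.46. The lowest value was -0.51, and the 5th and 95th percentiles of all genes were -0.23 and 0.24. These ends come from many genes over few cells, and a relation of any of them to the Irf8 level was not tested. The 15 highest genes of the class comparison had a median rank correlation of 0.12, from -0.05 to 0.43, and the 15 lowest a median of -0.18, from -0.35 to 0.28, beside a median of 0.01 over all measured genes. These medians have the sign of the class difference, and both lie inside the range between those percentiles, which are of single genes and not of medians of 15. The rank correlation of the Irf8 level with genes detected was -0.07 at 4 months and 0.24 at 14 months.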

How the data were processed

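The deposited table holds TPM for 38924 genes in 168 columns, 1 per cell, and each column sums to 1000000, so depth is unknown. The authors made the TPM values with Bowtie2 2.2.0, RSEM 1.2.12 and build mm10, per the submitters' processing notes. Columns show the age but not which labelled cell they are, and the table has 84 columns of 14 months beside 83 labelled cells. A pseudocount of 1 was added before taking log2, which understates differences of low genes. Each age is 1 sample and p-values were not computed. Spread over cells is not replicate error. No doublet caller was run, and 6 kept cells above 50% mitochondrial TPM stayed in. In 4 pairs of 14-month cells the log2 values had a correlation above 0.75, and 1 of these pairs held both classes.

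Measured genes had a mean of the ages' shares of cells of at least 10%. Named genes were the 15 highest and 15 lowest among those in at least 20% of cells with the same sign in both ages and in cells matched on genes detected, leaving out predicted genes, pseudogenes, mitochondrial transcripts and small RNAs. Further names came from each of 31 lists (its 2 highest and 2 lowest measured members), a key panel and the 5 genes most like Irf8 within positive cells. Marker genes listed at 0 are named besides. Clec12a, Grn, Psap, Ifi203, Oas1a, Usp18, Oas2, Ccr2, Ms4a6c, Sirpa, Tlr7 and Cd180 are named besides these rules, chosen after their values were seen. Some genes that these rules take are not reported here. The members and lists were chosen with earlier results of these data known, and they support nothing by themselves. Gene symbols were found for 37607 identifiers and none for 1317. Coordinates are those of GENCODE M21. The contrast script was tested on simulated data. Python 3.11.15, numpy 2.4.6, pandas 2.3.3 and scipy 1.17.1 were used, with 15 alternatives planned and 5 added after seeing the data.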

Additional observations from a re-analysis of the deposited data

Results flagged for a closer look

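In 2 named genes the relative differences had opposite signs at the ages and lay at least 0.5 from the median gene in each. Lyz2, the lysozyme gene of monocytes, macrophages and neutrophils, had -0.87 at 4 months and 1.39 at 14 months. It was detected in 19 of 31 positive and 22 of 33 negative cells at 4 months, and in 15 of 20 and 22 of 46 at 14 months. Gps1, a subunit of the COP9 signalosome, had -1.28 at 4 months and 0.55 at 14 months. The difference between the ages was not tested for either gene, since each age is 1 sample.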

How the results depend on the processing

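No paired analysis was possible because the classes are compared between cells and the columns carry no number that ties them to labelled cells. Taken over all columns, 30.4% of cells were Irf8-positive. Of the 30 leading genes 25 to 30 kept their sign within 14 months, 23 to 30 within 4 months and 25 to 30 with all ages together, with the lowest counts for medians over cells or all columns. For all columns Rgs1 had 0.0714. Of 9 followed list medians 5 kept their sign with medians over cells. The glycolysis median was -0.0098 in closely matched cells (within 0.1 log2), -0.0746 with genes detected in the fit and -0.0772 with the cell cycle level added. The 241 genes at least 1 above the median gene in both ages became 524 with a pseudocount of 0.1, 39 with 10, 540 with no filter, 138 with genes in at least 30% of cells, 801 with all columns, 994 with medians over cells, 123 in nearest-matched cells, 104 in closely matched cells, 88 with genes detected in the fit and 84 with the cell cycle level added. The 24 genes at least 1 below became 195, 1, 7 and 43 under the first 4 of these, 38 with cells of 2000 or more genes, 52 with positive cells at TPM 10 or more, 42 in nearest-matched cells, 9 with medians, 57 with set 4 only, 40 with set 5 only, 106 in closely matched cells, and 69 and 65 in the fits. With genes in at least 10% of negative cells only, the count above in both ages went from 13 to 8 for monocyte and dendritic function, 15 to 12 for innate sensing, 4 to 1 for reported targets and 3 to 1 for macrophage and monocyte markers. The cause was not tested, other than that filters change how many genes are tested.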
